A study of Homo sapiens with 15 samples.

Results

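Cells of MM.1S, an established line from human multiple myeloma whose MAF gene lies next to immunoglobulin enhancers after a translocation, were treated for 6 h with A-485 at 100 nM or with GNE-781 at 100 nM, and their RNA was compared directly. A-485 occupies the acetyltransferase site of CBP and p300, and GNE-781 occupies their bromodomain. The comparison set compounds aimed at different domains of the same proteins side by side. With only 100 nM of each, the domain and the extent of block cannot be told apart. The comparison used 6 of the 15 libraries of the series, 3 for A-485 and 3 for GNE-781, chosen by their labelled treatment. The other 9 libraries, 3 each for A-485 and GNE-781 together (100 nM of each, called the combination), for dCBP-1 at 100 nM, a degrader of CBP and p300, and for the vehicle DMSO, served to set levels beside the 6. All groups were the same cell line in the same medium at the same time after treatment, and nothing in the labels says whether replicates were separate cultures, so p-values measure the spread between these libraries only.

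CBP (gene CREBBP) and p300 (gene EP300) are paralogous coactivators that transcription factors recruit to enhancers and promoters. Their catalytic domain acetylates histones, among them lysine residues of histone H3 that mark active enhancers, and their bromodomain binds acetylated lysine. Plasma cells, from which myeloma arises, are held in their identity by a small circuit of transcription factors, including IRF4, PRDM1 and, in this line, MAF, whose genes are controlled by large enhancers. How far either domain was blocked at 100 nM was not measured in these libraries.

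RNA was sequenced from the 3′ ends of transcripts, and levels are normalized read counts, that is, reads per gene divided by 1 factor per library by the authors. Depth was 16.37 to 17.58 M reads for A-485 and 13.16 to 17.21 M reads for GNE-781, with mitochondrially encoded genes at 15.02% to 16.12% of reads in A-485 and 14.4% to 15.7% in GNE-781. The 8 plasma cell markers summed to 31985 to 39847 normalized read counts in A-485 libraries and 23275 to 25227 in GNE-781 libraries. Markers of T and NK cells summed to 18.2 to 27.5 in A-485 and 17.9 to 19.3 in GNE-781, with 3 of 8 at 0 in all 6 libraries, and myeloid markers to 13.8 to 30.8 in A-485 and 4.76 to 25.8 in GNE-781, with 4 of 8 at 0. Epithelial markers reached at most 13.9 and stromal markers at most 28.5 in the 6 libraries, and erythroid markers summed to 106.9 to 151.03 in A-485 and 58.0 to 72.6 in GNE-781, with 2 of 5 at 0. Whether other cells had a part in the results below was not tested, and in bulk RNA fewer cells of a type and less RNA per cell cannot be told apart.

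Factors and receptors of plasma cells, among them IRF4, POU2AF1, CCR1 and TNFRSF17, were higher with A-485 than with GNE-781, and EGR1, ETV5, JUN and FOS, which respond to growth factor signals, were lower. Most genes of that kind were not called: of 32 immediate early genes tested, 3 were lower and 0 higher. The ERK phosphatase gene DUSP4 was higher. JUN, FOS and DUSP4 lost their calls in some fits that left out 1 library. Of 16104 genes tested, 161 (1.0%) differed at an adjusted p below 0.05 in limma-trend, 117 higher in A-485 (0.727%) and 44 lower (0.273%). Of these, 24 higher genes and 14 lower genes differed at least 2 fold. The median log2 fold change was 0.77 over the 117 higher genes and −0.82 over the 44 lower genes, against −0.08 over all genes tested. The higher genes had a median level of 1020 normalized read counts in A-485 and 600.1 in GNE-781, and the lower genes 181 in A-485 and 297 in GNE-781. In all 161 genes the 3 A-485 libraries lay on 1 side of the 3 GNE-781 libraries, a separation seen in 19.9% of all genes tested. At the other end, 10267 genes (63.8%) had a 95% interval of the fold change that lay wholly within 2 fold in either direction.

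**Figure D1:**
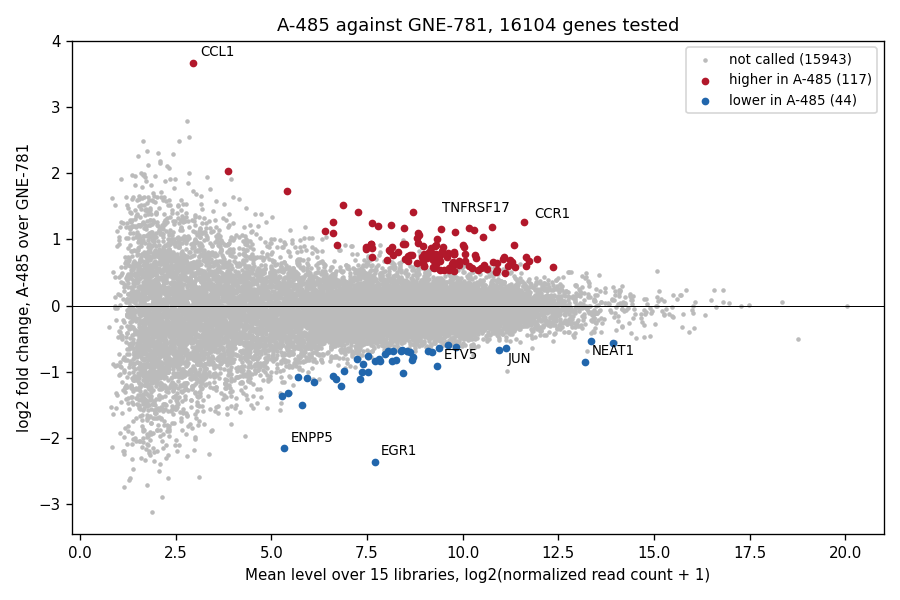
Log2 fold change of A-485 over GNE-781 (vertical axis) against mean level over the 15 libraries on the log2 scale (horizontal axis), 1 point per gene tested. Red points are the 117 genes called higher in A-485, blue points the 44 called lower, and grey points the genes not called; most called genes lie at medium to high levels, and EGR1 stands lowest among called genes.

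The split between higher and lower calls moved with single libraries. A-485 replicates differed among themselves: on the second principal component of the 15 libraries they stood at −11.3, 1.0 and 9.89, against −7.11, −10.3 and −6.64 for GNE-781. The deposited values, used without rescaling, also differed in scale between libraries. Their median-ratio scale factors were 1.073, 0.96 and 0.883 for A-485 replicates 1, 2 and 3. For GNE-781 they were 0.995, 1.034 and 1.04. After division by these factors, 320 genes were called higher and 75 lower, against 117 and 44 without it. The fits that left out 1 library were not repeated on rescaled values. Whether the offset moved the split in those fits was therefore not tested. Without A-485 replicate 1 there were 51 higher and 60 lower calls, without A-485 replicate 2 63 and 13, and without A-485 replicate 3 94 and 9. Without GNE-781 replicates 1, 2 and 3 there were 47 and 10, 60 and 12, and 68 and 11. Genes called in each of those 6 fits numbered 46, of which 40 were higher and 6 lower, and all 46 were also called under every other setting tried. The 6 lower ones were EGR1, ENPP5, PEX11A, EIF5A2, ETV5 and the noncoding RNA NEAT1.

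**Figure D2:**
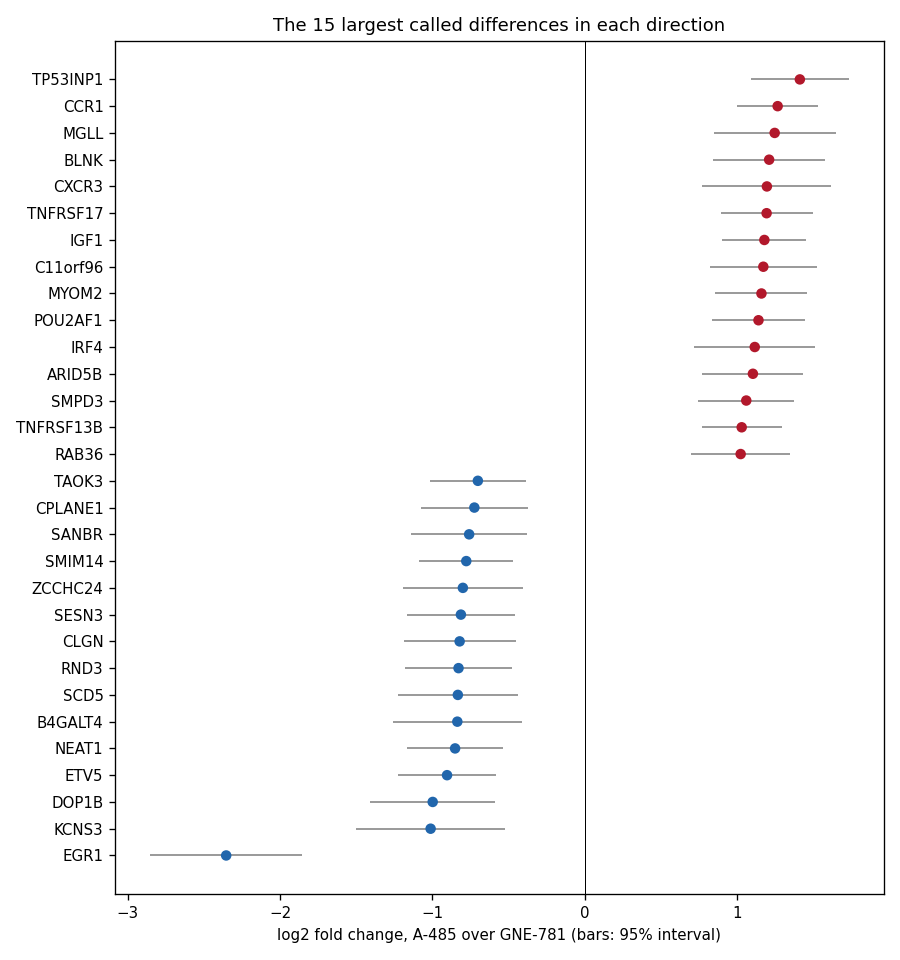
Log2 fold change of A-485 over GNE-781 with its 95% interval (horizontal axis) for the 15 called genes with the largest difference in each direction among genes at or above the median level. All 15 higher genes, from RAB36 at 1.02 to TP53INP1 at 1.41, have intervals above 0, and EGR1 at −2.35 lies apart from the other 14 lower genes.

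Transcription factors of the plasma cell program were among the genes higher with A-485 than with GNE-781. IRF4 (ENSG00000137265), on which myeloma cells depend, had 2364, 1631 and 1667 normalized read counts with A-485 and 691, 962 and 946 with GNE-781. The lowest A-485 library stood above the highest GNE-781 library, and the log2 fold change was 1.12 ± 0.19 (SE; limma adjusted p = 0.0017). POU2AF1, a B cell coactivator of octamer-binding factors, had 2797, 2268 and 2385 with A-485 and 975, 1179 and 1224 with GNE-781 (1.14 ± 0.15 on the log2 scale, adjusted p = 3.2e-05). PRDM1, which drives plasma cell differentiation, had 7059, 5629 and 5909 with A-485 and 3728, 3749 and 3593 with GNE-781 (0.74 ± 0.13, limma adjusted p = 0.0025). IRF4, POU2AF1 and PRDM1 kept their calls under every setting tried. With DMSO, IRF4 averaged 2335 ± 133, POU2AF1 2743 ± 351 and PRDM1 9190 ± 649 (SD, n = 3). Against DMSO, PRDM1 was called lower with A-485 (−0.57, limma adjusted p = 0.019), and IRF4 and POU2AF1 were not (adjusted p = 0.43 and 0.70). Each of these factors was called lower than DMSO with GNE-781 (limma adjusted p at most 6.7e-06).

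MAF (ENSG00000178573), the translocated factor, had 11187, 9390 and 10179 normalized read counts with A-485 and 6262, 6753 and 7482 with GNE-781. The groups did not overlap, and the log2 fold change was 0.59 ± 0.14 (limma adjusted p = 0.038). This call ended when any 1 of the 6 libraries was left out, with adjusted p from 0.071 to 0.25. It also ended with no filter on low values (adjusted p = 0.12) and with replicate number as a block (adjusted p = 0.076). With DMSO, MAF averaged 16394 ± 1437 (SD, n = 3). Against DMSO it was called lower with A-485 (−0.68, limma adjusted p = 0.010) and with GNE-781 (−1.26, limma adjusted p = 6.4e-07). IRF2, an interferon regulatory factor, was also higher with A-485 than with GNE-781 (0.78 ± 0.16, limma adjusted p = 0.011). That call ended on leaving out A-485 replicate 1 or 2 or GNE-781 replicate 1, with adjusted p from 0.059 to 0.088. Of 37 plasma cell and myeloma transcription factors tested, 7 were called higher and 0 lower, or 18.9%, against 1.0% of all genes tested. Their median log2 fold change was 0.29, against −0.08 over all genes, and 28 of 37 were positive. Without A-485 replicate 1 the list median was 0.12, against −0.15 over all genes. Each compound set against the same DMSO libraries gave 0 higher and 4 lower of these factors with A-485 and 0 higher and 20 lower with GNE-781. Over all genes tested, A-485 against DMSO called 2.14% (0.348% higher and 1.79% lower) and GNE-781 against DMSO called 16.6% (7.82% higher and 8.81% lower).

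MYC (ENSG00000136997) had 1095, 588 and 816 normalized read counts with A-485 and 334, 433 and 534 with GNE-781, against 1448 ± 246 with DMSO (SD, n = 3). The A-485 libraries lay above the GNE-781 libraries, but the spread among them was wide, and the log2 fold change of 0.92 had a 95% interval of 0.24 to 1.60 (limma adjusted p = 0.22). The difference passed the threshold with edgeR (adjusted p = 0.016), with DESeq2 (adjusted p = 0.042) and with only the 6 libraries in the limma fit (adjusted p = 0.00034). Of 13 genes of MYC and its partners tested, 0 were called, near the share of 1.0% over all genes tested. Of 41 MYC targets in ribosome biogenesis, 0 were called, although 31 had a positive fold change and their median was 0.12. RRP9, a ribosomal RNA processing factor, had the smallest p among them (0.47, 95% interval 0.17 to 0.76, limma adjusted p = 0.12).

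Several receptors and adhesion molecules of plasma cells were well separated between the compounds. CCR1 (ENSG00000163823), a chemokine receptor and known MAF target, had 8481, 7788 and 6901 normalized read counts with A-485 and 3067, 3140 and 3392 with GNE-781. Each A-485 library held more than 2 times the count of each GNE-781 library, and limma put the log2 fold change at 1.27 ± 0.13 with an adjusted p of 1.1e-06. TNFRSF17 (BCMA), a plasma cell receptor that several myeloma therapies target, had 3874, 3907 and 3089 with A-485 and 1634, 1294 and 1840 with GNE-781 (1.19 ± 0.15, limma adjusted p = 1.9e-05). Its relative TNFRSF13B (TACI) had 2667, 2980 and 2545 with A-485 and 1336, 1141 and 1552 with GNE-781 (1.03 ± 0.13, limma adjusted p = 1.9e-05). Both receptors bind the survival ligands APRIL and BAFF, and neither receptor's groups overlapped.

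CCR1 and the TNF receptors differed in where A-485 stood relative to vehicle. CCR1 averaged 7723 ± 792 with A-485 and 3200 ± 171 with GNE-781, against 8370 ± 913 with DMSO (SD, n = 3 each). TNFRSF17 averaged 3623 ± 463 with A-485 and 1590 ± 276 with GNE-781, against 6023 ± 815 with DMSO. Set against the same DMSO libraries, TNFRSF17 fell with A-485 (−0.73, limma adjusted p = 0.0065) and with GNE-781 (−1.93, adjusted p = 5.8e-10), whereas CCR1 had −0.12 with A-485 (adjusted p = 0.73) and fell with GNE-781 (−1.38, adjusted p = 5.4e-08). IGF1, a growth factor for myeloma cells, followed the CCR1 order, with 2566, 2042 and 2084 normalized read counts with A-485 and 884, 1075 and 986 with GNE-781 (1.18 ± 0.13, limma adjusted p = 4.6e-06), against 2237 ± 188 with DMSO.

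Of 31 plasma cell surface and secretory markers tested, 6 were higher and 0 lower (19.4% called, against 1.0% of all genes), with a median of 0.22. Beside TNFRSF17 and TNFRSF13B they included the syndecan SDC1, the surface proteoglycan used to identify plasma cells, with 5655, 5213 and 4479 with A-485 and 3255, 2892 and 3440 with GNE-781 (0.68 ± 0.12, limma adjusted p = 0.0029). ITGA4, an integrin subunit for bone marrow homing, was higher as well (0.88 ± 0.16, limma adjusted p = 0.0031). Of 21 chemokine receptors, integrins and homing genes tested, 6 were higher and 0 lower (28.6%), with a median of 0.35. CXCR3, a chemokine receptor, had 420, 390 and 334 with A-485 and 157, 121 and 237 with GNE-781 (1.20 ± 0.21, limma adjusted p = 0.0017). PTK2B, a kinase of the focal adhesion family, had 3789, 4082 and 3813 with A-485 and 1892, 1895 and 2450 with GNE-781 (0.92 ± 0.13, limma adjusted p = 0.00011). The lists share the called genes ITGA4 and CCR2 and so are not independent.

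**Figure D3:**
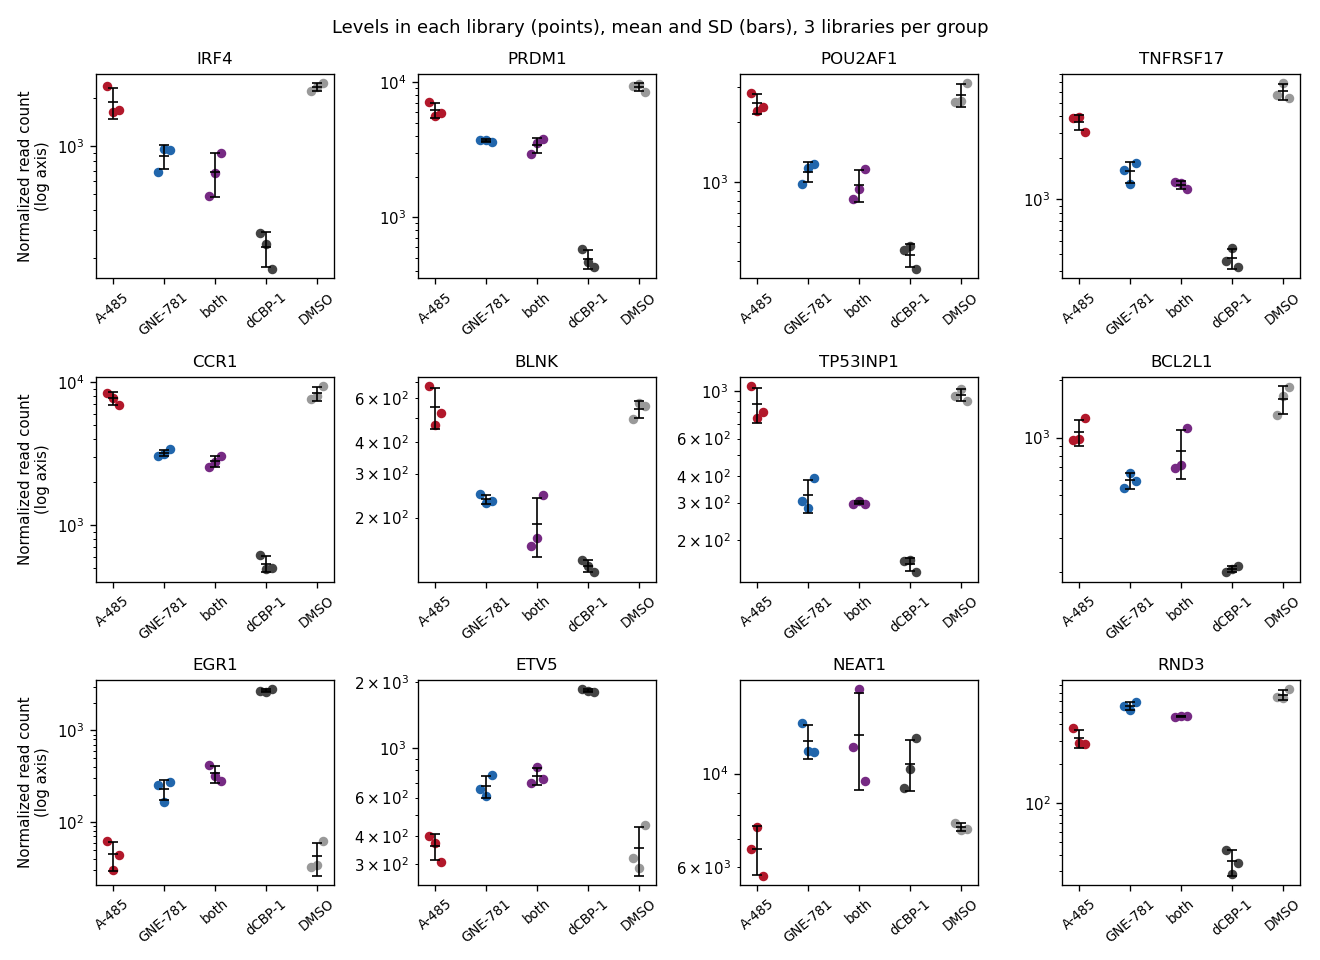
Normalized read counts (vertical log axis) of 12 genes in each library, with A-485, GNE-781, the combination (labelled both), dCBP-1 and DMSO from left to right; points are libraries and bars the mean and SD of 3. For CCR1 the A-485 libraries sit at 6901 to 8481 and the GNE-781 libraries at 3067 to 3392, and for EGR1 the order is turned round.

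Of 27 B cell receptor signalling genes tested, 2 were higher with A-485 (0.727% of all genes tested were) and 0 lower. BLNK, the adaptor that links the B cell receptor kinase SYK to its effectors, had 671, 471 and 523 normalized read counts with A-485 and 248, 230 and 233 with GNE-781 (1.21 ± 0.18, limma adjusted p = 0.0002), against 542 ± 41.5 with DMSO. PTPN6, a phosphatase that restrains receptor signalling, had 893, 851 and 773 with A-485 and 518, 420 and 494 with GNE-781 (0.82 ± 0.15, limma adjusted p = 0.0027). No other member of the list was called, and its median was 0.02, against −0.08 over all genes tested. BTK, a kinase downstream of the receptor, had 0.55 with an interval of 0.11 to 0.99 (adjusted p = 0.27), and the kinase LYN had −0.33 with an interval of −0.61 to −0.04 (adjusted p = 0.32).

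Antiapoptotic genes were among those higher with A-485 than with GNE-781. BCL2L1, which encodes BCL-XL, had 972, 981 and 1261 normalized read counts with A-485 and 545, 658 and 597 with GNE-781 (0.83 ± 0.17, limma adjusted p = 0.007). BCL2 had 1141, 1010 and 894 with A-485 and 597, 658 and 633 with GNE-781 (0.68 ± 0.15, limma adjusted p = 0.015). The BCL2L1 call ended on leaving out A-485 replicate 3 (adjusted p = 0.077) or the first GNE-781 library (adjusted p = 0.076), and that of BCL2 without A-485 replicate 1 or 2 or any 1 GNE-781 replicate (adjusted p from 0.054 to 0.11). These were the 2 of 17 BCL2 family genes called (11.8%, against 1.0% of all genes tested). Proapoptotic BMF had 0.61 with an interval of 0.26 to 0.97 (adjusted p = 0.091). With DMSO, BCL2L1 averaged 1590 ± 262 and BCL2 1136 ± 65 (SD, n = 3). Against DMSO neither was called with A-485 (limma adjusted p = 0.069 and 0.63). With GNE-781 BCL2L1 had −1.39 and BCL2 −0.85 (limma adjusted p = 1.2e-06 and 0.00019). TP53INP1, a stress-induced gene that p53 and other factors activate, had 1058, 753 and 803 with A-485 and 305, 283 and 390 with GNE-781 (1.41 ± 0.16, limma adjusted p = 3.5e-06). It was the 1 member called of 29 p53 targets tested (3.45%, against 1.0% of all genes), whose median was −0.02.

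In the NF-kB pathway, 3 of 27 feedback inhibitors and targets were higher with A-485 (11.1%, against 0.727% of all genes tested), and no subunit was called. TNFAIP3 (A20), which removes ubiquitin chains that carry the signal, had 2077, 1799 and 1911 normalized read counts with A-485 and 991, 1311 and 1097 with GNE-781 (0.77 ± 0.15, limma adjusted p = 0.0037). BIRC3, a ubiquitin ligase that limits the noncanonical branch, had 1884, 1611 and 1608 with A-485 and 991, 1155 and 1037 with GNE-781 (0.68 ± 0.14, limma adjusted p = 0.007). The groups did not overlap for either gene. With DMSO, TNFAIP3 averaged 2320 ± 169 and BIRC3 2161 ± 292 (SD, n = 3). Against DMSO neither was called with A-485 (limma adjusted p = 0.39 and 0.21). With GNE-781 TNFAIP3 had −1.04 and BIRC3 −1.02 (limma adjusted p = 1.3e-05 and 6.4e-06). CFLAR, an inhibitor of caspase 8, was the third one called (0.51 ± 0.12, adjusted p = 0.027), with 0 of the list lower and a list median of 0.03, against −0.08 over all genes tested. TNFAIP3 lost its call without GNE-781 replicate 1 (adjusted p = 0.067), and BIRC3 on leaving out replicate 1 of A-485 (adjusted p = 0.051) or of GNE-781 (adjusted p = 0.078). CFLAR lost it without A-485 replicate 1 or 2 or any 1 GNE-781 replicate (adjusted p from 0.073 to 0.17), and with replicate number as a block (adjusted p = 0.070).

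NFKB2 (ENSG00000077150), which encodes the precursor subunit of the noncanonical branch, had 685, 715 and 946 normalized read counts with A-485 and 726, 720 and 671 with GNE-781, against 1998 ± 364 with DMSO. The A-485 and GNE-781 libraries overlapped, and the log2 fold change of 0.13 had a 95% interval of −0.17 to 0.44 (limma adjusted p = 0.78). Relative to the shared DMSO libraries NFKB2 fell by 1.35 with A-485 (adjusted p = 7.9e-06) and by 1.48 with GNE-781 (adjusted p = 1.2e-07) on the log2 scale. Of the 5 NF-kB subunit genes, 0 were called between the compounds, against 1.0% of all genes tested. REL had the smallest p among them (−0.79, 95% interval −1.40 to −0.19, adjusted p = 0.25).

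TNFAIP3 and BIRC3 are shown here by the DNA before their starts because both were higher with A-485 and both are classical NF-kB targets. The windows run from 250 bases before to 50 bases after the RefSeq start (GRCh38.p14, plus strand, chr6:137867009-137867308 for TNFAIP3 and chr11:102317234-102317533 for BIRC3), and capitals mark matches to the NF-kB consensus (the kB site) on either strand.
TNFAIP3: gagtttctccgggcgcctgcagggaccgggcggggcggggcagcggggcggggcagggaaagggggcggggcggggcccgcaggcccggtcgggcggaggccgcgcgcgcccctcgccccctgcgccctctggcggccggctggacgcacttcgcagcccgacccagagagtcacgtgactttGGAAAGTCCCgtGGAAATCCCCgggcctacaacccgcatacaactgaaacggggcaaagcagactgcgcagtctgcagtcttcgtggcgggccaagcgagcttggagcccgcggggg
BIRC3: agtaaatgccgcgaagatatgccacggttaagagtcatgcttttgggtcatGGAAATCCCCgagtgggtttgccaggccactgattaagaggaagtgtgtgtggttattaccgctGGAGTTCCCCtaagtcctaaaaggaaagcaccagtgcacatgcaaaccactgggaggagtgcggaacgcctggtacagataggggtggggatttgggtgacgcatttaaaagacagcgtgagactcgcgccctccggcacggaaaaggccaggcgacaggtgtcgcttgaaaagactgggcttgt
Each window held 2 kB sites. RefSeq windows were available for 81 of the 117 higher genes and 38 of the 44 lower genes. A kB site was found in 6 of the 81 (7.41%) and 6 of the 38 (15.8%), against 6.53% of 11126 windows of genes tested and 5.72% of all 27305 windows.

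A few immediate early and ERK-responsive transcription factors were lower with A-485 than with GNE-781. EGR1 (ENSG00000120738), a zinc finger factor induced within minutes of growth factor signals, had 61.7, 30.3 and 44.3 normalized read counts with A-485 and 254, 167 and 277 with GNE-781. Each A-485 library was far below each GNE-781 library, and limma put the log2 fold change at −2.35 ± 0.24 with an adjusted p of 1.1e-06, the furthest below 0 of the 44 lower genes. The A-485 mean of 45.4 ± 15.7 and the GNE-781 mean of 233 ± 58.3 stood beside 339 ± 69.4 with the combination, 2691 ± 98.6 with dCBP-1 and 42.8 ± 16.6 with DMSO (SD, n = 3 each). ETV5, an ETS factor induced by ERK signalling, had 403, 374 and 308 with A-485 and 653, 613 and 761 with GNE-781 (−0.90 ± 0.16, limma adjusted p = 0.0017). EGR1 and ETV5 kept their calls under every setting tried.

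The AP-1 subunit JUN had 1785, 1371 and 1240 normalized read counts with A-485 and 2460, 2134 and 2332 with GNE-781 (−0.67 ± 0.14, limma adjusted p = 0.011). Its partner FOS had 103, 43.1 and 55.4 with A-485 and 134, 136 and 176 with GNE-781 (−1.22 ± 0.27, limma adjusted p = 0.02). The JUN call ended without A-485 replicate 2 or 3 or GNE-781 replicate 1 or 3 (adjusted p from 0.063 to 0.11). The FOS call ended without any of A-485 replicates 2 and 3 and the 3 GNE-781 replicates (adjusted p from 0.065 to 0.17). It also ended with no filter on low values (adjusted p = 0.058). EGR1, JUN and FOS were the 3 of 32 immediate early genes called, all lower (9.38%, against 0.273% of all genes tested), and the list's median was −0.12, against −0.08 over all genes. Against DMSO, 0 members of the list were higher and 4 lower with A-485 (0.348% and 1.79% of all genes tested). With GNE-781 against DMSO, 5 were higher and 5 lower (7.82% and 8.81% of all genes tested). BTG1, an antiproliferative member of the list, had 0.50 between the compounds with an interval of 0.21 to 0.79 (adjusted p = 0.089). Among 26 ERK phosphatases and feedback genes, 2 were called (7.69%, against 1.0% of all genes): ETV5 was lower and DUSP4, a phosphatase that inactivates ERK, was higher, with 1930, 1566 and 1665 with A-485 and 945, 1112 and 1025 with GNE-781 (0.74 ± 0.17, limma adjusted p = 0.024). The DUSP4 call ended when any 1 of the 6 libraries was left out (adjusted p from 0.052 to 0.17), and with no filter on low values (adjusted p = 0.063).

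The EGR1 window (GRCh38.p14, plus strand, chr5:138465229-138465528) is shown because EGR1 lay furthest below GNE-781 among the lower genes and CArG boxes, the sites of serum response factor, are the known route by which ERK signals reach it; capitals mark CArG boxes on either strand.
EGR1: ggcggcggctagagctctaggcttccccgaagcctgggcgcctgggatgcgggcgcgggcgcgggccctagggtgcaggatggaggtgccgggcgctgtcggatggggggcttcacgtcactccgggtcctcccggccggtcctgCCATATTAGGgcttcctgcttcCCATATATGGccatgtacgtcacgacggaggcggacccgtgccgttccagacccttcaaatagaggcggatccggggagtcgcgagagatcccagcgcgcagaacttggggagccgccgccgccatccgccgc
It held 2 CArG boxes. A CArG box was found in 2 of the 38 windows of lower genes (5.26%), those of EGR1 and RND3, and in 1 of the 81 of higher genes (1.23%), against 1.02% of windows of genes tested and 1.29% of all windows. The octamer ATGCAAAT, the site of the factors that POU2AF1 assists, was found in 4 of 81 windows of higher genes (4.94%) and 1 of 38 of lower genes (2.63%), against 1.45% of genes tested and 1.80% of all windows.

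RND3, an atypical small GTPase that lowers actin contractility, had 373, 286 and 285 normalized read counts with A-485 and 555, 520 and 594 with GNE-781 (−0.83 ± 0.17, limma adjusted p = 0.0092), against 461 with the combination, 35.5 with dCBP-1 and 677 ± 58.6 with DMSO. Here GNE-781 stood nearer to DMSO than A-485 did. Relative to the shared DMSO libraries RND3 fell by 1.11 on the log2 scale with A-485 (limma adjusted p = 0.00059) and had −0.28 with GNE-781 (adjusted p = 0.28). The difference between the compounds lost its call without A-485 replicate 2 or 3 or GNE-781 replicate 1 or 3 (adjusted p from 0.063 to 0.080). RND3 was on the list of 15 MAF targets tested, of which CCR1 was called higher, RND3 lower and no other member was called (13.3%, against 1.0% of all genes tested).

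NEAT1, the noncoding RNA that builds nuclear paraspeckles, had 6646, 7490 and 5738 normalized read counts with A-485 and 13156, 11323 and 11260 with GNE-781 (−0.85 ± 0.15, limma adjusted p = 0.0027), against 7476 ± 149 with DMSO. The groups were well apart. SESN3, a sestrin that restrains mTORC1, was lower as well (−0.81 ± 0.17, limma adjusted p = 0.013), as was SCD5, a fatty acid desaturase (−0.83 ± 0.19, adjusted p = 0.025), but the SESN3 call ended without A-485 replicate 2 or 3 or any 1 GNE-781 replicate (adjusted p from 0.050 to 0.11), and the SCD5 call without A-485 replicate 1 or 3 or any 1 GNE-781 replicate (adjusted p from 0.052 to 0.17). TPM1, a tropomyosin of actin filaments, had 211, 224 and 151 with A-485 and 318, 255 and 254 with GNE-781 (−0.51, 95% interval −0.97 to −0.04, adjusted p = 0.36).

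The genes of the 2 target proteins did not pass the test between the compounds. CREBBP had 1701, 1477 and 1175 normalized read counts with A-485 and 2000, 1886 and 1648 with GNE-781, groups that overlapped, and its log2 fold change of −0.36 had an interval of −0.66 to −0.06 (limma adjusted p = 0.30). EP300 had 1175, 983 and 1132 with A-485 and 1559, 1689 and 1198 with GNE-781, groups that did not overlap (−0.42, interval −0.76 to −0.09, adjusted p = 0.27). None of 23 histone acetyltransferases and partners tested was called, and their median was 0.02. None of 44 G2/M and mitosis genes was called (median −0.13, 7 positive). RRM2, a ribonucleotide reductase subunit, was the 1 of 44 DNA replication genes called (2.27%, against 1.0% of all genes). It had −0.53 ± 0.13 (limma adjusted p = 0.038), and the list median was −0.18. The RRM2 call ended without A-485 replicate 2 or 3 or any 1 GNE-781 replicate (adjusted p from 0.10 to 0.18). It also ended with no filter on low values (adjusted p = 0.12) and with replicate number as a block (adjusted p = 0.090). CIITA, the master regulator of MHC class II, had 1.01 with an interval of 0.41 to 1.60 (adjusted p = 0.097), and none of 13 MHC class II genes was called. In all, 16 of 33 lists, with 401 members tested, had 0 members called, and their medians ran from −0.19 to 0.19. As 1.0% of all genes tested were called, 0 called in any 1 of these lists is near the share over all genes. The 16 lists were grouped because they had 0 members called, so 0 of the 401 follows from that choice.

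**Figure D4:**
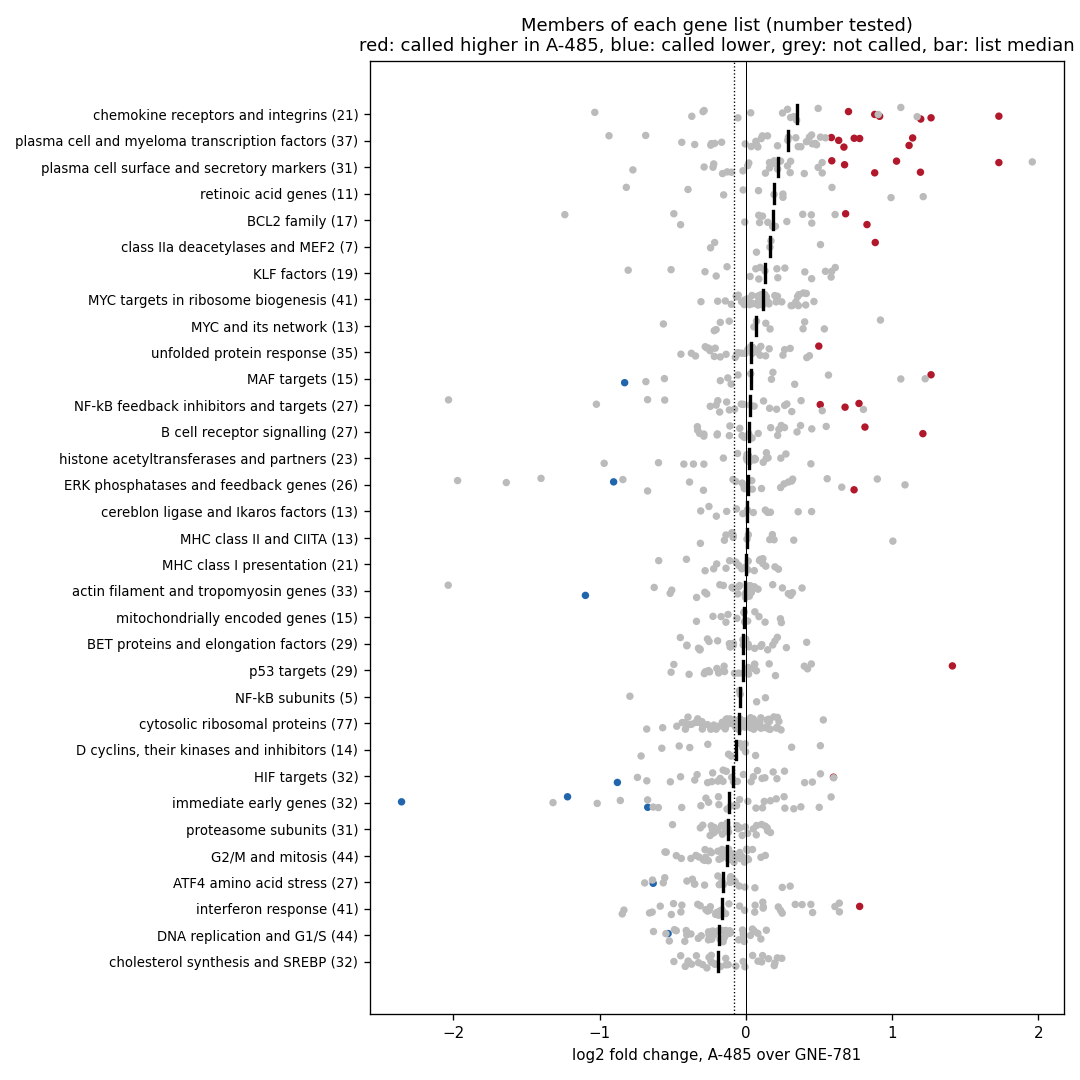
Log2 fold change of A-485 over GNE-781 (horizontal axis) for the tested members of 33 gene lists, with the number tested in parentheses; red points were called higher, blue points lower, grey points not called, black bars are list medians and the dotted line the median of all genes tested, −0.08. Red points gather in the lists of homing receptors, plasma cell factors and surface markers, whose medians are 0.35, 0.29 and 0.22.

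The called genes were then read in the combination and dCBP-1 libraries, each set against DMSO. These 9 libraries enter neither mean of the difference between A-485 and GNE-781, but they enter the filter on low values and the shared spread by which genes were called. All 117 genes that were higher with A-485 than with GNE-781 fell with dCBP-1 relative to DMSO, against 18.5% of all genes tested and 25.7% of genes at or above the median level. With the combination, 114 of the 117 fell, against 9.6% of all genes tested and 14.7% of genes at or above the median level. Their median log2 fold change was −2.08 with dCBP-1 and −1.10 with the combination. Of the 44 genes lower with A-485, 42 rose with dCBP-1 (19.3% of all genes tested) and 34 with the combination (11.4%), with medians of 1.12 and 0.85, and 1 fell with each, RND3 with dCBP-1 by 4.23 and with the combination by 0.55.

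DMSO replicates 1 and 2 stood apart: the mitochondrial share of reads was 23.1% in replicate 1 and 19.7% in replicate 2, and 16.4% in replicate 3. No DMSO library enters the difference between A-485 and GNE-781, but they enter the shared spread and the comparisons with DMSO. Without both, 278 genes were called between the compounds, 154 higher and 124 lower. Only DMSO replicate 3 then stood for the vehicle, so effect sizes alone are given against it. The median log2 fold change over DMSO of those higher genes was −2.17 with dCBP-1 and −1.19 with the combination. For the lower genes it was 1.08 with dCBP-1 and 0.73 with the combination.

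**Figure D5:**
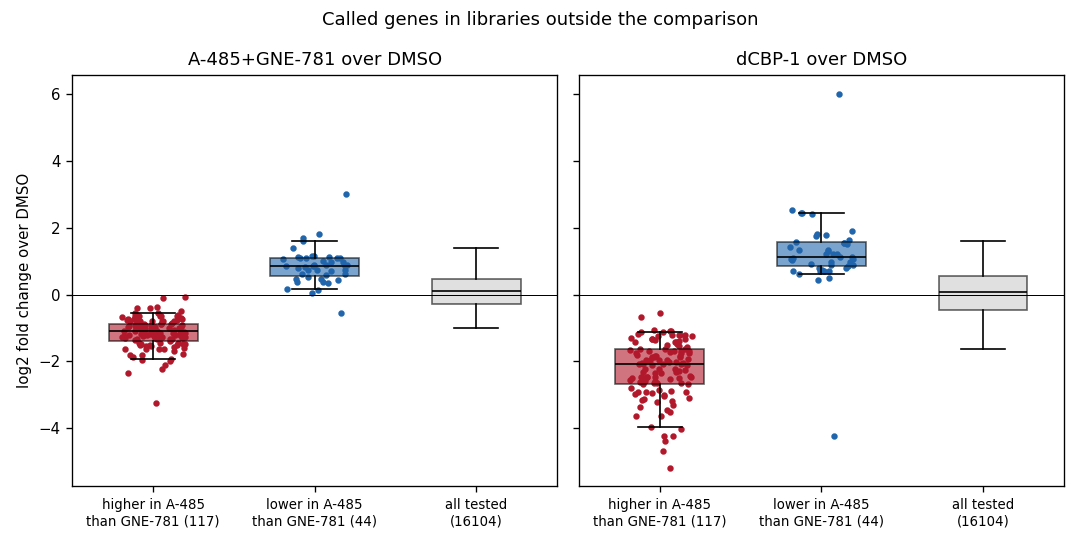
Log2 fold change over DMSO with the combination (left) and dCBP-1 (right) for the 117 genes higher in A-485 than in GNE-781, the 44 lower and all 16104 genes tested; boxes show the quartiles and median, whiskers the 5th and 95th percentiles, points single genes. The red boxes lie below 0 (medians −1.10 and −2.08) and the blue boxes above 0 (medians 0.85 and 1.12).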

How the data were processed

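Per the labels, mRNA 3′ ends were sequenced (Lexogen QuantSeq) and the build was hg19. The aligner, counter and normalization tool are not given in the sources used here. The signal the authors deposited is 1 normalized read count per gene and library: each was a whole multiple of 1 step per library (100% within a tolerance of 0.01 read), so reads were recovered. Strand of counting is not stated, so antisense reads cannot be told apart. The table held 47459 gene rows; 45779 had a symbol. For 2 combination libraries the labels spell the second compound GNE-782 or GNE-783 in one field; titles were followed. Values were taken as log2(value + 1), and genes with 5 or more in at least 3 of 15 libraries were tested with limma-trend (limma 3.58.1, R 4.3.3) in 1 model of 5 group means, two-sided, with Benjamini-Hochberg adjustment over 16104 genes; ± is SE for fold changes and SD for levels. edgeR 4.0.16 and DESeq2 1.42.0 on recovered reads were alternatives, with 20 alternatives in all. The fit was tested on simulated reads divided by their exact library factors, so the scale differences left in the deposited values were not simulated. Named were the 15 largest called differences each way at or above the median level with groups apart, up to 4 members of a list by smallest p, and 10 fixed genes; the text gives a part of them. ENPP5, PEX11A, EIF5A2, CCR2 and CCL1 were named after their values were seen. Members and lists were chosen with earlier results of these data known. Replicates differed by more than counting error (chi-square per degree of freedom 9.84 to 16.1 within A-485 and GNE-781). Some results are not reported here.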

Additional observations from a re-analysis of the deposited data

How the results depend on the processing

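The 161 genes called (117 higher, 44 lower) numbered 393 (315 and 78) with TMM factors, 395 (320 and 75) with median-ratio factors, 388 (281 and 107) under quantile normalization, 466 (243 and 223) with only the 6 libraries compared, 272 (150 and 122) with the 12 treated libraries, 413 (329 and 84) with edgeR, 743 (535 and 208) with DESeq2 and 111 (89 and 22) with no filter. Without DMSO replicates 1 and 2, an alternative chosen after seeing the data, it was 278 (154 and 124). Leaving out 1 library gave 57 to 111 genes, 47 to 94 higher and 9 to 60 lower. The replicate block gave 107 (84 and 23). Same-numbered libraries of the 2 compounds did not deviate together (r of −0.07, −0.49 and 0.02), so the numbers were not taken as pairs. Differently numbered libraries had r from −0.36 to 0.47, the highest between A-485 replicate 2 and GNE-781 replicate 1. These deviations were taken on values without rescaling. The causes of these changes were not tested. The median fold change of all genes was −0.08 and came to −0.01 under each of TMM, median-ratio and quantile scaling.

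The count of genes higher with A-485 that fell with dCBP-1, 117, was 310 of 315 under TMM, 315 of 320 under median-ratio scaling, 273 of 281 under quantile normalization, 326 of 329 with edgeR and 517 of 535 with DESeq2, and 47 to 94 with 1 library left out. Over all genes tested, 18.5% fell with dCBP-1 in the main fit. That share was not computed for the other settings, so their counts have no background beside them. Of 52 named genes called, 23 kept the call in all 20 alternatives, 29 lost it without 1 library or another, and 0 changed direction. NFKB2, not called, had −0.010 without A-485 replicate 3 and at most 0.22 when another library was left out (without A-485 replicate 1). Depth of 13.16 to 17.58 M reads limits genes of few reads: 3 reads, the upper limit that 0 reads allows, were worth 2.37 to 3.57 normalized read counts, and cover counting error only.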

Other observations

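Genes of low level were outside the rule for naming and include the widest differences, so they are given here as values chosen after they were seen. CCL1, a chemokine, had 41.1, 35.8 and 22.1 normalized read counts with A-485 and 2.76, 0.0 and 3.69 with GNE-781, against 31.5 ± 16.4 with DMSO (SD, n = 3; limma adjusted p = 0.0078 between the compounds). The GNE-781 libraries were near the limit of detection, so no fold change is given. CCR2, a chemokine receptor, averaged 162 ± 22.5 with A-485 and 48.2 ± 7.48 with GNE-781, against 149 ± 45.2 with DMSO (limma log2 fold change 1.73, adjusted p = 0.015). ENPP5, of the ectonucleotide pyrophosphatase family, averaged 16.1 ± 6.14 with A-485 and 74.2 ± 21.2 with GNE-781, against 17.4 ± 9.04 with DMSO (−2.15, limma adjusted p = 0.0026). PEX11A, a peroxisome division factor, averaged 27.6 ± 2.75 with A-485 and 80.05 ± 6.94 with GNE-781, against 22.7 ± 5.71 with DMSO (−1.50, limma adjusted p = 0.0023). EIF5A2, a translation factor, averaged 88.1 ± 22.9 with A-485 and 187 ± 22.4 with GNE-781, against 97.7 ± 6.83 with DMSO (−1.10, limma adjusted p = 0.0033). In each of these genes the A-485 and GNE-781 libraries did not overlap.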
